A study of Mus musculus with 9 samples.

Results

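The genes described here are 10 markers of endothelial cells, the cells that line blood vessels: Flt1, Kdr, Tek, Tie1, Eng, Cdh5, Pecam1, Esam, Cldn5 and Emcn. They were taken by symbol from a table of 21423 genes measured by RNA sequencing in the mouse nucleus accumbens, a striatal region of the brain's reward circuit. Of the 10 genes, 9 had a mean of at least 1 RPKM (reads mapped to a gene, scaled to the length of its gene model and to the mapped reads of the lane) over the 9 sequencing lanes and were compared between libraries; Emcn, below that level, is given by its values only.

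The animals were male C57BL/6 mice, 2 to 5 months old. The saline group received daily intraperitoneal saline (10 ml/kg) for 7 days, and the cocaine group daily intraperitoneal cocaine for 7 days; both were killed 24 hours after the last injection. The withdrawal group received the same course of cocaine and then spent 8 days in the home cage. The labels give cocaine doses of 10 and 20 mg/kg without tying a dose to a sample. In each group, accumbens RNA of 8 mice was pooled into 1 library, read in 3 technical lanes. The 3 lanes therefore measure sequencing error and not the spread between mice: every difference below is between 1 library and another, has no check by a second pool, and is given without a p-value. Punches of tissue hold many cell types, so more endothelial cells and more RNA per endothelial cell cannot be told apart.

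The brain endothelium forms the blood-brain barrier, in which cells are joined by tight junctions and carry selective transporters. Its growth and stability are regulated largely by VEGF acting on the receptors encoded by Flt1 and Kdr, and by angiopoietins acting on the receptor encoded by Tek, with which the product of Tie1 associates. The products of Cdh5, Pecam1, Esam and Cldn5 lie at contacts between endothelial cells, and the promoters of many endothelial genes contain sites for ETS-family transcription factors.

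The 250 bases before the transcription start are shown for the 4 markers whose RefSeq start coincides with that of a second annotation. The sequences are from RefSeq on GRCm38.p6, which is not the mm9 build of the measurements, and are written 5′ to 3′ on the gene's own strand. Capitals mark AGGAAG, a common form of the ETS core, on either strand (AGGAAG or CTTCCT). Eng lies on the plus strand at chr2:32646345-32646594, Tek on the plus strand at chr4:94739039-94739288, Flt1 on the minus strand at chr5:147726012-147726261 and Cldn5 on the plus strand at chr16:18776597-18776846.
Eng: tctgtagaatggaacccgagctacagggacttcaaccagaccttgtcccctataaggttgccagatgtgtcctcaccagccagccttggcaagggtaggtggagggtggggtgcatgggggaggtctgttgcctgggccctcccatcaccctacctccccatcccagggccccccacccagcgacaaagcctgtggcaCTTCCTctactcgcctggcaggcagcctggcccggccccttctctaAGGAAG
Tek: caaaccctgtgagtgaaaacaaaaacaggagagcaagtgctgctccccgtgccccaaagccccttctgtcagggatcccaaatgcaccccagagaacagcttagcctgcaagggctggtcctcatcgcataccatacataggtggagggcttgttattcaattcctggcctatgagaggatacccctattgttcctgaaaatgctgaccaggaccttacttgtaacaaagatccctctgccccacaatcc
Flt1: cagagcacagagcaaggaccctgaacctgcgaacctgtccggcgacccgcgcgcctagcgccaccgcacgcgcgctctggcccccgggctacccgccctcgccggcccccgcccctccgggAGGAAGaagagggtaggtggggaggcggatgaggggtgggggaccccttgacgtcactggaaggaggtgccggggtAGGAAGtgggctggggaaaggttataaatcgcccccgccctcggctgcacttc
Cldn5: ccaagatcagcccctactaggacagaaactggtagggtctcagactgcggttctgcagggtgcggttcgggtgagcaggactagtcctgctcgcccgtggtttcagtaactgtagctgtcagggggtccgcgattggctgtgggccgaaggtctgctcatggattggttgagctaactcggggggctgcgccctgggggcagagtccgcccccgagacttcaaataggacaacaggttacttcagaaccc
Flt1 and Eng each held 2 matches to the motif, and Tek and Cldn5 held none. Of the 7 markers with a window in the table, 4 (Eng, Emcn, Tie1 and Flt1) held at least 1 match, against 29.5% of all 32851 windows of this length. TATAAA on either strand was found for Flt1 alone of the 7, against 12.4% of all windows. The GC content of the 4 windows shown was 62.4% for Eng, 51.2% for Tek, 70.4% for Flt1 and 59.6% for Cldn5, against a median of 52.4% over all windows. A match is a description of the letters and was not tested as a binding site.

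The libraries held 26006605 mapped reads for saline, 24219333 for cocaine and 19452882 for withdrawal, as the table's own totals give them, with lanes of 5546362 to 12026754. At this depth a marker's value in a lane rested on between 11 and 601 read equivalents. Differences below are between library means of log2(RPKM + 0.5), with the standard error (SE) from the lanes; the added 0.5 lowers the differences of weakly expressed genes. A gene is called when the gap between 2 libraries reached 1.5 times on that scale (0.585) and their lanes did not overlap. Across the 14051 genes tested, 2.93% were called higher and 2.41% lower in cocaine than in saline. The corresponding shares were 3.96% and 3.37% for withdrawal against saline, and 0.470% and 0.548% for withdrawal against cocaine. These 3 comparisons share libraries, so the results of one are not independent of those of the others.

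Endothelial markers were higher in both libraries from cocaine-treated mice than in the saline library. In the cocaine library 5 of the 9 tested markers were called higher (Flt1, Tek, Tie1, Eng and Cdh5) and none lower, against 2.93% of all tested genes called higher. In the withdrawal library 8 of 9 were called higher, all except Esam, against 3.96% of all tested genes. The median difference of the 9 markers was 0.63 for cocaine against saline, where the median of all tested genes was -0.047, and 0.77 for withdrawal against saline, where it was -0.056. Between withdrawal and cocaine the markers' median was 0.17 against -0.0074 for all genes, and 1 marker, Esam, was called. The members' lanes were wholly above those of saline for 8 of 9 markers in cocaine and for all 9 in withdrawal; over all tested genes this was so for 18.3% and 18.6%.

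**Figure D1:**
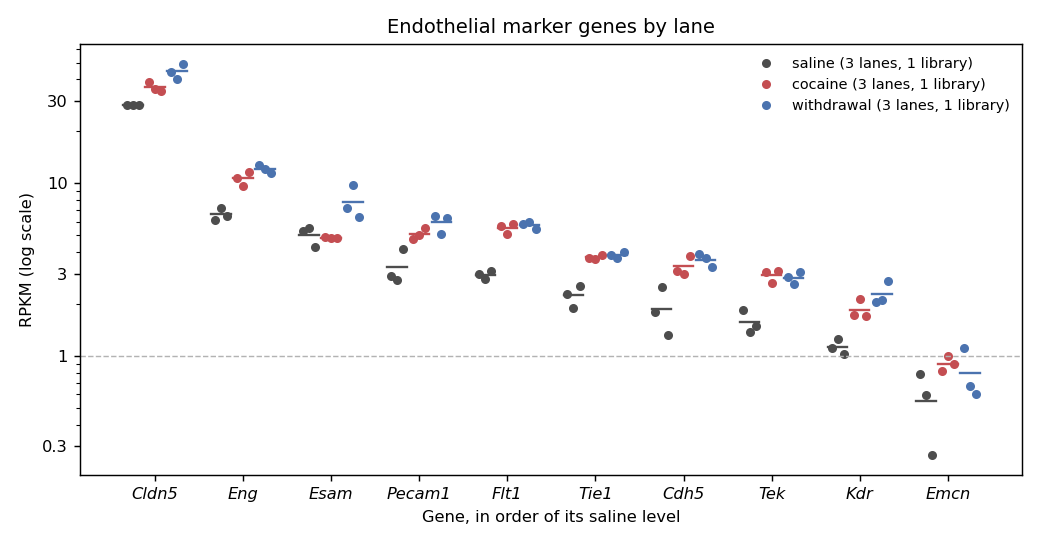
RPKM (log scale) of each endothelial marker gene in each lane, with 3 lanes of 1 library per group and a bar at the lane mean; the dashed line marks 1 RPKM. For every gene but Esam and Emcn, the cocaine and withdrawal lanes lie above all saline lanes; for Esam only the withdrawal lanes do, and for Emcn only the cocaine lanes.

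Flt1 encodes VEGF receptor 1, a high-affinity receptor that also limits the VEGF available to other receptors. Its saline lanes read 2.99, 2.78 and 3.09 RPKM, its cocaine lanes 5.68, 5.08 and 5.81, and its withdrawal lanes 5.82, 5.96 and 5.47. The saline lanes stood apart below all others, and the cocaine and withdrawal lanes overlapped. Flt1 rose by 0.80 ± 0.067 (SE) in cocaine against saline and by 0.86 ± 0.052 in withdrawal against saline; 1.69% and 1.89% of all tested genes had a larger difference. Relative to genes of like length the differences were 0.50 and 0.57, and neither was called. Withdrawal and cocaine differed by 0.055 ± 0.064.

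Kdr encodes VEGF receptor 2, the main signalling receptor for VEGF in endothelium. It read 1.118, 1.251 and 1.033 RPKM in saline, 1.74, 2.14 and 1.70 in cocaine, and 2.07, 2.12 and 2.72 in withdrawal. The saline lanes were again below all others, while 1 cocaine lane reached into the withdrawal lanes. The cocaine difference of 0.53 ± 0.10 fell short of the limit for a call, although the ratio of mean RPKM was 1.64; the withdrawal difference of 0.77 ± 0.12 was called. The ratio of Flt1 to Kdr within a lane ran from 2.22 to 2.99 in saline, 2.37 to 3.41 in cocaine and 2.01 to 2.81 in withdrawal, which are overlapping ranges.

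Tek encodes the angiopoietin receptor TIE2. Its lanes read 1.85, 1.37 and 1.49 RPKM in saline, 3.06, 2.65 and 3.11 in cocaine, and 2.87, 2.60 and 3.06 in withdrawal. Tek rose by 0.74 ± 0.12 in cocaine and by 0.70 ± 0.11 in withdrawal. Tie1, the related receptor without a known high-affinity ligand, read 2.29, 1.91 and 2.53 RPKM in saline, 3.72, 3.63 and 3.85 in cocaine, and 3.83, 3.69 and 4.01 in withdrawal. It rose by 0.63 ± 0.098 and by 0.67 ± 0.10. For both receptors the saline lanes were the lowest and the cocaine and withdrawal lanes overlapped, with differences between the latter libraries of -0.041 ± 0.085 for Tek and 0.037 ± 0.037 for Tie1. The Tie1 calls were close to the limit: without the second saline lane the differences were 0.54 in cocaine and 0.58 in withdrawal, and neither was called.

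Eng encodes endoglin, a co-receptor for ligands of the TGF-beta family. It read 6.13, 7.24 and 6.46 RPKM in saline, 10.8, 9.60 and 11.7 in cocaine, and 12.8, 12.1 and 11.4 in withdrawal. The saline lanes were the lowest, with a gap to the nearest cocaine lane, and 1 withdrawal lane lay within the cocaine lanes. Eng rose by 0.65 ± 0.10 in cocaine and by 0.83 ± 0.082 in withdrawal against saline.

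Cdh5 encodes VE-cadherin, the adherens junction cadherin of endothelium. Its lanes read 1.79, 2.52 and 1.32 RPKM in saline, 3.10, 2.97 and 3.82 in cocaine, and 3.89, 3.71 and 3.28 in withdrawal. The saline lanes were the most scattered of the markers called in both comparisons with saline, and still below all others. Cdh5 rose by 0.70 ± 0.23 and by 0.82 ± 0.22; without the third saline lane the cocaine difference was 0.52 and no longer called.

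Pecam1 encodes CD31, an adhesion molecule of endothelial contacts that platelets and some leukocytes also carry. It read 2.90, 2.75 and 4.19 RPKM in saline, 4.77, 4.99 and 5.49 in cocaine, and 6.50, 5.07 and 6.28 in withdrawal. The third saline lane was the highest of its library and still below every cocaine lane. The cocaine difference of 0.580 ± 0.18 lay just under the limit of 0.585 and passed it without the third saline lane (0.75), without the first (0.62) or the second (0.59) cocaine lane, and relative to genes of like length (0.61); the withdrawal difference of 0.78 ± 0.20 was called.

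Esam, an immunoglobulin-family adhesion molecule of endothelial tight junctions and platelets, had a different order of the libraries. It read 5.27, 5.51 and 4.29 RPKM in saline, 4.89, 4.80 and 4.84 in cocaine, and 7.24, 9.79 and 6.39 in withdrawal. The 3 cocaine lanes fell within the range of the saline lanes, a difference of -0.041 ± 0.10, and all withdrawal lanes lay above both other libraries. Esam rose by 0.62 ± 0.17 in withdrawal against cocaine, a difference that 0.954% of tested genes exceeded; against saline, withdrawal stood 0.575 ± 0.20 higher, just under the limit, and at 0.61 to 0.70 it passed the limit when the first or the second saline lane, or the first or the third withdrawal lane, was left out. The call rests on the second withdrawal lane: without it the difference from cocaine was 0.45. Within a lane, Esam was 2.18 to 3.26 times Cdh5 in saline, 1.27 to 1.62 times in cocaine and 1.86 to 2.64 times in withdrawal, so the cocaine lanes lay apart from those of both other libraries. The ratio of Esam to Pecam1 ran from 1.02 to 2.00 in saline, 0.881 to 1.02 in cocaine and 1.02 to 1.93 in withdrawal, ranges that meet at 1.02.

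Cldn5 encodes claudin-5, the main tight junction claudin of brain endothelium, and was the most abundant marker per length. Its lanes read 28.5, 28.2 and 28.4 RPKM in saline, 38.4, 35.2 and 34.1 in cocaine, and 43.8, 40.0 and 49.3 in withdrawal. It was the only tested marker whose 3 libraries were fully apart, in the order saline, cocaine, withdrawal. The cocaine difference was 0.33 ± 0.051, short of a call, and that of withdrawal against cocaine was 0.30 ± 0.10, also short of one. Cldn5 rose by 0.63 ± 0.086 in withdrawal against saline, or 0.55 and no call without the third withdrawal lane.

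Emcn encodes endomucin, a sialomucin of venous and capillary endothelium. It read 0.791, 0.592 and 0.267 RPKM in saline, 0.816, 0.995 and 0.900 in cocaine, and 1.12, 0.673 and 0.605 in withdrawal. The cocaine lanes were above the saline lanes and the withdrawal lanes overlapped both. Differences from saline were 0.45 ± 0.23 and 0.32 ± 0.28.

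**Figure D2:**
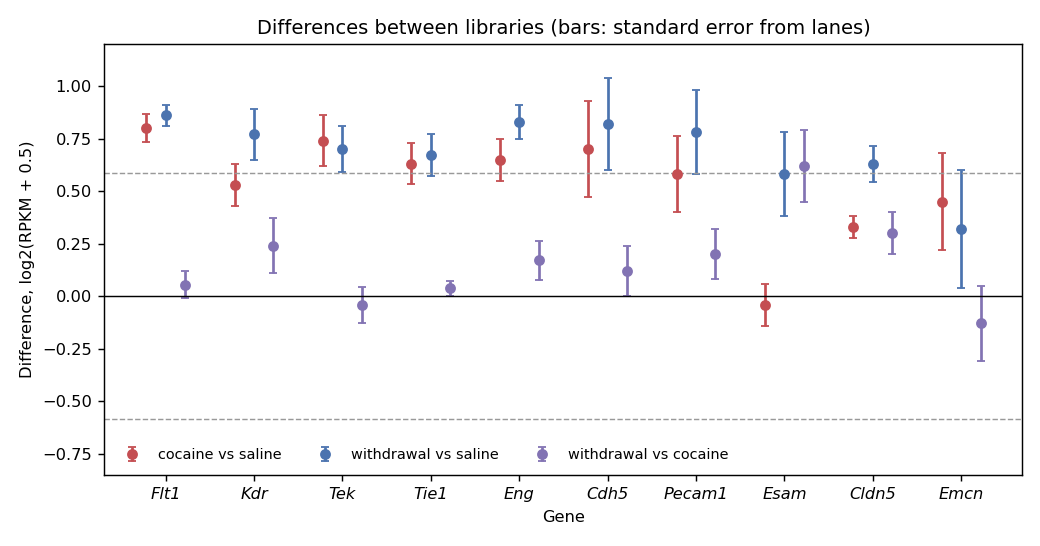
Difference in log2(RPKM + 0.5) between libraries for each marker, with bars for the standard error from the 3 lanes of each library (sequencing error only); dashed lines mark 1.5 times. The differences from saline are positive for every marker except Esam in cocaine (-0.041), and most differences between withdrawal and cocaine lie near 0, with Esam at 0.62 the highest.

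Cldn5 and Eng were the most abundant of the 10 per length and Kdr and Emcn the least abundant in all 3 libraries. In saline, Cldn5 at 28.4 ± 0.167 RPKM (SD, 3 lanes) was above 79.0% of tested genes, Eng at 6.61 ± 0.569 above 40.2%, and Kdr at 1.13 ± 0.110 above 3.12%. Esam followed Eng in saline (5.02 ± 0.645), ahead of Pecam1 (3.28 ± 0.791) and Flt1 (2.95 ± 0.159), whose lanes overlapped. In cocaine, Flt1 (5.52 ± 0.388), Pecam1 (5.08 ± 0.369) and Esam (4.84 ± 0.0437) followed in that order, each overlapping its neighbour. In withdrawal the order was Esam (7.81 ± 1.77), Pecam1 (5.95 ± 0.771) and Flt1 (5.75 ± 0.254), again with overlapping neighbours. Tie1, Cdh5 and Tek came next in each library, with overlapping lanes except between Cdh5 and Tek in withdrawal, where Tek instead overlapped Kdr.

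Differences from saline also varied with the length of the gene model over the whole table. Across tested genes, the rank correlation of the difference with gene model length was 0.46 for cocaine and 0.42 for withdrawal against saline, and 0.012 for withdrawal against cocaine. The markers ran from 1416 bp (Cldn5) to 11583 bp (Flt1), and the median of the tested ones, 4331 bp, was longer than 61.8% of tested genes. After the median of genes of like length was subtracted, the markers' median difference was 0.61 for cocaine and 0.73 for withdrawal, against 0.63 and 0.77 before. On that scale 6 and 8 of the 9 were called higher, against 3.39% and 4.21% of all tested genes. Flt1, the longest, fell to 0.50 and 0.57 and was not called in either comparison. Cldn5, the shortest, reached 0.61 and 0.94, called in both, and Esam 0.097 and 0.73, called in withdrawal.

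**Figure D3:**
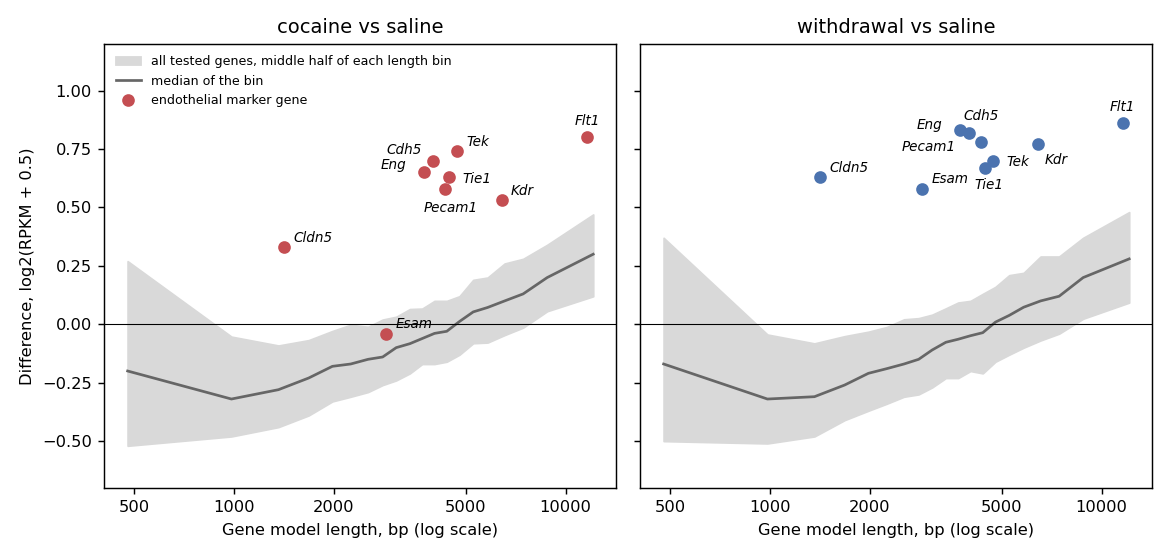
Difference in log2(RPKM + 0.5) against gene model length (log scale) for the 9 tested markers, over the median (line) and the interquartile range (band) of all tested genes in 20 bins of length. The bin medians run from about -0.32 for short genes to 0.30 for the longest in cocaine; every marker lies above the band of its own length except Esam in cocaine.

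Ligands and partners of the VEGF receptors were not called higher in either comparison with saline, for 5 tested of 8 listed. Vegfa, the main ligand of Kdr, read 25.7 ± 2.06 RPKM in saline, 27.3 ± 0.752 in cocaine and 25.4 ± 0.872 in withdrawal, differences of 0.090 ± 0.069 and -0.013 ± 0.071 from saline. Vegfb, a ligand of Flt1, stood at 47.0 ± 5.21, 40.3 ± 3.02 and 41.7 ± 3.25 RPKM. Pgf, another Flt1 ligand, was the only one called: it fell from 2.02 ± 0.638 RPKM in saline to 1.08 ± 0.0509 in cocaine, by 0.64 ± 0.20, but the difference was -0.44 and uncalled without the third saline lane. The co-receptor Nrp1 read 4.27 ± 0.00836, 4.36 ± 0.089 and 4.09 ± 0.154 RPKM. Its relative Nrp2, named after its values were seen, read 5.53, 7.28 and 7.33 RPKM, with both other libraries' lanes above saline and uncalled differences of 0.37 ± 0.080 and 0.38 ± 0.059.

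Of the angiopoietin system, 2 of 8 listed genes passed the level filter. Ptprb, which encodes the endothelial phosphatase VE-PTP that acts on TIE2, rose from 1.31 ± 0.0492 RPKM in saline to 3.21 ± 0.244 in cocaine and 3.76 ± 0.366 in withdrawal, by 1.04 ± 0.059 and 1.24 ± 0.076. Its gene model is long (13202 bp), and the differences relative to genes of like length were 0.74 and 0.95. The ratio of Tek to Ptprb within a lane was 1.01 to 1.47 in saline, 0.884 to 0.973 in cocaine and 0.640 to 0.910 in withdrawal, so the saline lanes lay above all others. The ligand genes Angpt1 and Angpt2 were below the filter, with means of 0.960, 1.16 and 0.874 RPKM and of 0.248, 0.259 and 0.342 RPKM for saline, cocaine and withdrawal.

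Among 13 tested partners of endoglin in TGF-beta and BMP signalling, 1 was called higher in each comparison with saline and none lower. Over all tested genes, 2.93% and 3.96% were called higher. The called gene was Bmpr2, the type II BMP receptor, at 3.82 ± 0.447 RPKM in saline, 14.6 ± 0.447 in cocaine and 15.2 ± 0.811 in withdrawal. Its rises were 1.81 ± 0.092 and 1.86 ± 0.099. Acvrl1, which encodes the endothelial type I receptor ALK1, read 2.78, 4.002 and 3.57 RPKM, with uncalled differences of 0.46 ± 0.11 and 0.30 ± 0.21. Tgfbr2 differed from saline by 0.30 ± 0.094 and 0.25 ± 0.088. The medians of the 13 genes were 0.078 and 0.041.

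The 14 tested tight and adherens junction partners, many of them not restricted to endothelium, had medians of 0.11 and 0.12. None was called in cocaine and 1 was called higher in withdrawal, against 2.93% and 3.96% of all tested genes called higher. That gene was Cgnl1, which encodes the junction protein paracingulin, with 1.78 RPKM in saline and 3.34 in withdrawal, a rise of 0.75 ± 0.12. Tjp1, which encodes the scaffold ZO-1, read 10.7 ± 0.63, 15.7 ± 0.709 and 15.2 ± 0.472 RPKM, uncalled differences of 0.53 ± 0.060 and 0.49 ± 0.053. Ocln, which encodes occludin, differed by 0.23 ± 0.19 and 0.15 ± 0.20.

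Among 16 blood-brain barrier transporters none was called in cocaine and 2 were called higher in withdrawal, against 2.93% and 3.96% of all tested genes called higher. In both comparisons 14 of 16 were above 0 (43.5% and 43.4% of all tested genes), with medians of 0.22 and 0.30. Slc2a1, the glucose transporter GLUT1, read 29.9 ± 1.21, 36.2 ± 1.79 and 40.0 ± 2.3 RPKM, differences of 0.27 ± 0.053 and 0.41 ± 0.058. Abcb1a, the efflux pump P-glycoprotein, differed by 0.45 ± 0.12 and 0.52 ± 0.12. The called genes were Slc22a8, an organic anion transporter, at 0.65 ± 0.11, which fell to 0.57 without the first saline lane or without the third withdrawal lane, and Lrp8, at 0.61 ± 0.024, a lipoprotein receptor that neurons also express, at 0.33 relative to genes of like length.

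Of the 22 tested genes of a further endothelial list, 3 were called higher in cocaine and 4 in withdrawal and none lower, against 2.93% and 3.96% of all tested genes called higher. Of the 22, 12 and 16 were above 0 (43.5% and 43.4% of all tested genes). The lanes lay wholly above saline for 6 and 7 (18.3% and 18.6% of all tested genes). The medians were 0.0083 and 0.14. Relative to genes of like length the medians were 0.17 and 0.32. Vwf, the von Willebrand factor gene, rose by 0.79 ± 0.11 and 0.71 ± 0.10, or 0.48 and 0.42 relative to genes of like length, which are not calls. Podxl, a sialomucin gene, rose by 0.61 ± 0.052 and 0.70 ± 0.049; the cocaine call was lost without the second saline lane (0.58), without the first cocaine lane (0.57) and relative to genes of like length (0.55). Nos3, the endothelial nitric oxide synthase gene, rose in withdrawal by 0.83 ± 0.14, and Eltd1, an adhesion G protein-coupled receptor gene, in cocaine by 0.71 ± 0.11.

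Endothelial transcription factor genes were called higher for 2 of 15 tested in cocaine and 3 of 15 in withdrawal, against 2.93% and 3.96% of all tested genes. Their medians were 0.26 and 0.47. Relative to genes of like length, 3 and 8 of the 15 were called higher, against 3.39% and 4.21% of all tested genes, with medians of 0.36 and 0.60. Klf4, a factor induced by laminar flow, rose from 0.797 RPKM in saline to 1.58 and 1.99, by 0.73 ± 0.31 and 0.99 ± 0.29; without the second saline lane the cocaine difference was 0.46. Foxq1 rose by 1.13 ± 0.54 and 1.35 ± 0.54 from a saline level of 1.56 ± 1.03 that varied widely between lanes. Sox18, a factor of vascular development, read 2.11 RPKM in saline, 3.03 in cocaine and 5.06 in withdrawal, a rise in withdrawal of 1.14 ± 0.27 over saline and 0.70 ± 0.25 over cocaine; the latter was 0.47 without the second cocaine lane. Sox18 was the only one of the 15 called between withdrawal and cocaine.

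Arterial and venous genes were called higher for 2 of 10 tested in each comparison with saline, against 2.93% and 3.96% of all tested genes, with medians of 0.17 and 0.19. The lanes lay wholly above saline for 4 in each comparison (18.3% and 18.6% of all tested genes). They lay wholly below for 1 in cocaine, Apln (-0.33), against 23.9% of all tested genes. In withdrawal they lay wholly below for 2, Apln (-0.28) and Nr2f2 (-0.34), against 25.6%. Sema3g, an arterial semaphorin, rose by 0.69 and 1.04 from 0.553 RPKM, and with a pseudocount of 1 its cocaine difference was 0.50 and not called. Notch1, a receptor of arterial specification that neural cells also express, rose by 0.66 ± 0.084 and 0.78 ± 0.046, and stood at 0.36 and 0.49, uncalled, relative to genes of like length.

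**Figure D4:**
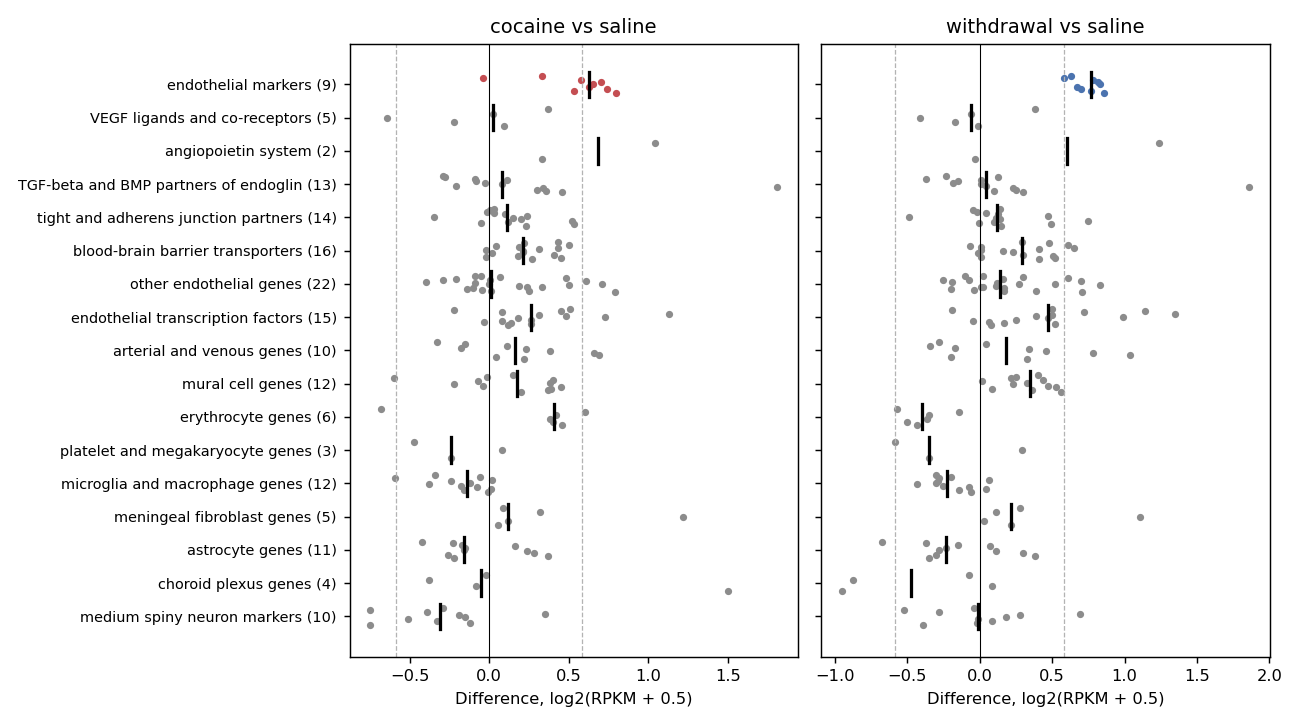
Difference in log2(RPKM + 0.5) from saline for each tested gene of each list (points) with the list's median (bar) and the number of tested genes in parentheses; dashed lines mark 1.5 times. The endothelial markers have medians of 0.63 and 0.77, the 2 tested angiopoietin system genes 0.68 and 0.60, mural cell genes 0.17 and 0.34, and microglia genes -0.14 and -0.22. Relative to genes of like length, which the figure does not show, these medians are 0.61 and 0.73, 0.62 and 0.56, 0.13 and 0.36, and -0.026 and 0.013.

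Genes of other cells in or near vessels were examined in the same way. The mural cell list is of genes of pericytes and vascular smooth muscle, though not all of them, such as Pdgfb and Cspg4, are restricted to those cells. Of its 12 tested genes none was called in either comparison with saline, and the medians were 0.17 and 0.34. In withdrawal all 12 stood above saline, 7 of them with all lanes above those of saline (18.6% of all tested genes), and 2 were called higher with median or GC centring and 1 with the length or 75th percentile scaling. Pdgfrb, the pericyte PDGF receptor gene, differed from saline by 0.20 ± 0.19 in cocaine and 0.56 ± 0.17 in withdrawal, and Rgs5 by 0.37 ± 0.035 and 0.36 ± 0.060. The mural genes' summed level ranged over lanes from 86.6 to 90.3 RPKM in saline, 91.4 to 97.4 in cocaine and 103 to 109 in withdrawal, and that of the endothelial markers from 53.0 to 54.1, 72.0 to 77.0 and 85.7 to 92.4. In withdrawal against cocaine 1 mural gene was called, Higd1b, higher by 0.81 ± 0.17 (0.470% of all tested genes called higher).

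Haemoglobin and other erythrocyte genes summed to 502 to 537 RPKM in saline, 611 to 687 in cocaine and 375 to 405 in withdrawal. The lanes of 5 of 6 tested genes lay wholly above saline in cocaine (18.3% of all tested genes). In withdrawal 5 of 6 were called lower than in cocaine (0.548% of all tested genes), such as Hbb-b1 by 0.89 ± 0.073. Near-identical haemoglobin copies can share reads, so single copies are uncertain. Platelets also carry the products of Pecam1 and Esam. Platelet and megakaryocyte genes summed to 117 to 119 RPKM in saline, 78.0 to 90.9 in cocaine and 78.6 to 83.2 in withdrawal, with no call among 3 tested. Nearly all of that sum was Gp1bb, with means of 114, 82.7 and 76.6 RPKM. The sum therefore follows 1 gene, and whether it tracks platelet content was not tested. The other members, chosen for mention after their values were seen, had no common direction: Itga2b read 1.74, 1.39 and 1.31 RPKM and Gp1ba 1.05, 1.17 and 1.41, and Pf4, below the filter with overlapping lanes, 0.196, 0.647 and 0.704. Microglia and macrophage genes summed to 217 to 236, 194 to 202 and 186 to 199 RPKM, with median differences from saline of -0.026 and 0.013 relative to genes of like length. The part of blood cells in the marker differences was not tested.

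Meningeal fibroblast genes summed to 19.2 to 22.9 RPKM in saline, 27.1 to 31.6 in cocaine and 24.6 to 29.6 in withdrawal. Much of that sum was Igf2, with means of 12.7, 15.9 and 13.7 RPKM, and Fn1. All 5 tested genes stood above 0 in both comparisons with saline, with medians of 0.12 and 0.22. The lanes lay wholly above saline for 1 of the 5 in cocaine and 2 in withdrawal (18.3% and 18.6% of all tested genes). Of 5 tested, Fn1, a fibronectin gene that endothelium also expresses, was called higher in both comparisons (2.93% and 3.96% of all tested genes). It went from 2.46 RPKM in saline to 6.37 and 5.86, rises of 1.22 and 1.11. Choroid plexus genes summed to 46.2 to 55.0, 52.9 to 58.1 and 45.3 to 48.5 RPKM, most of it Enpp2, with means of 40.2, 39.7 and 38.2 RPKM. Ttr, the most characteristic transcript of the choroid plexus, read 2.37, 7.51 and 0.949 RPKM. Markers of medium spiny neurons, the main accumbens neurons, summed to 1985 to 2083 RPKM in saline, 1434 to 1519 in cocaine and 1732 to 1748 in withdrawal. Most of that sum was Penk (1018, 775 and 840 RPKM) and Ppp1r1b (655, 389 and 498 RPKM). Of the 10 markers, 2 were called lower in cocaine (2.41% of all tested genes) and 1 higher in withdrawal (3.96%). Their median differences from saline were -0.31 and -0.014, or -0.19 and 0.068 relative to genes of like length. Astrocyte genes summed to 1279 to 1302, 1241 to 1250 and 1145 to 1188 RPKM, with no common direction. Aldoc read 604, 515 and 467 RPKM, and Slc1a2 279, 339 and 343. Of 11 tested, the lanes lay wholly above saline for 4 in cocaine and 3 in withdrawal. They lay wholly below for 5 in each (23.9% and 25.6% of all tested genes). Only S100b was called, lower in withdrawal (3.37% of all tested genes). The astrocyte medians were -0.16 and -0.23, or -0.096 and -0.10 relative to genes of like length. No marker of the 10 was at 0 in all lanes of a library. The part that the mix of cells in each punch had in the endothelial differences was not tested.

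Among the genes whose log2(RPKM + 0.5) over the 9 lanes followed the mean profile of the 10 markers, each centred on its own mean, most closely were Mll2, Lrp1, Bsn, Plec and Gm608, with Pearson correlations of 0.994 to 0.995, of 11248 genes at 3 RPKM or more. The 9 points come from 3 libraries, so this describes an order of libraries shared by many genes. None of these 5 is an endothelial marker of the lists used here, and their gene models are long, 12851 to 21047 bp. Lrp1, a lipoprotein receptor gene, read 45.0, 75.9 and 87.2 RPKM in saline, cocaine and withdrawal.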

How the data were processed

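RNA from pooled accumbens punches was sequenced as 37-cycle paired ends (3 lanes for each of 3 libraries). Reads were aligned with Bowtie 0.12.7 to mm9, per the submitters' processing notes; the counter and annotation are not given in the sources used here. Values as deposited are RPKM per lane and per library, made by the authors; they did not come out as whole reads, so no count test was run. From them, differences of mean log2(RPKM + 0.5) were computed in Python 3.11.15 (numpy 2.4.6, pandas 2.3.3, scipy 1.17.1) for genes averaging 1 RPKM or more over the lanes. Gene model length was solved from the values and lane totals. The calling rule was tested on simulated data. Members and gene lists were chosen with earlier results of these data known. Genes named are the 10 members, 15 fixed vascular genes, the called genes of each list (the 4 largest where more) and the 6 most alike, of which 1 is not reported here; where the text names fewer, the rest stand in the counts. Alternatives were other pseudocounts, filters, limits and scalings, and each lane left out. Same-numbered lanes of different libraries did not deviate together (correlations -0.051 to 0.076), so lane numbers pair nothing.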

Additional observations from a re-analysis of the deposited data

How the results depend on the processing

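Only sequencing error could be assessed, since each group was 1 library; the lanes' median SD of 0.114 to 0.130 (log2) and the low read numbers of Emcn and Kdr limit small differences. Markers called in cocaine against saline (5) became 1 of 3 tested with a 5 RPKM filter, 8 with a lower limit on size and 0 with 2 times; in withdrawal against saline (8) they became 2 with that filter and 0 with 2 times; between withdrawal and cocaine (1) they became 0 with 2 times or a pseudocount of 1. With each lane left out in turn the counts were 4 to 6, 8 to 9 and 0 to 1, the median differences 0.58 to 0.65, 0.68 to 0.81 and 0.10 to 0.22, and the calls among all genes 846 to 966, 1176 to 1272 and 233 to 273. With the lane number as a replicate block, 5, 8 and 1 markers and 828, 1167 and 203 genes were called. The marker median in cocaine was 0.55 with a pseudocount of 1, 0.33 with the 5 RPKM filter and 0.72 when centred by GC content; in withdrawal it was 0.63 with that pseudocount and 0.63 with that filter; between withdrawal and cocaine it was 0.30 with that filter.

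All genes called numbered 749, 1030 and 143. They became 399, 591 and 43 with the 5 RPKM filter, 3077, 3697 and 653 with the lower limit on size, and 146, 190 and 27 at 2 times; between withdrawal and cocaine they were 296 with no filter, 314 without the lane condition and 282 with the composite value per library. Scaling moved the split of calls higher and lower from 411 and 338 in cocaine to 505 and 230 (median-centred), 535 and 204 (same 75th percentile), 476 and 97 (gene length) or 468 and 233 (GC content), and from 557 and 473 in withdrawal to 729 and 309, 765 and 280, 591 and 176 or 701 and 289. Uncalled values that changed sign were Esam in cocaine against saline, at 0.0058 (median-centred), 0.024 (75th percentile), 0.097 (length), 0.032 (GC) and 0.023 (without the second saline lane, within -0.14 to 0.023 over the lanes left out), and, for withdrawal against cocaine, Tie1 at -0.010 (GC) and Tek at 0.012 (without the second withdrawal lane, within -0.10 to 0.012 over the lanes left out). In withdrawal against saline Esam was called, at 0.63 or 0.64, with the median, 75th percentile or GC scaling. With a pseudocount of 1, Tie1 was not called in cocaine (0.55), and Tek (0.58) and Tie1 (0.58) were not called in withdrawal. The cause of these changes was not tested, other than the smaller number of genes under a filter.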
